A study of Saccharomyces cerevisiae with 4 samples.

Results

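The cells described here are the high-histone cells of 2 yeast cultures, those whose barcode gathered the most histone H2B in a single-cell protein count. For each cell barcode the counts of H2B and of its monoubiquitinated isoform H2Bub were added. The group was chosen by this measured sum alone. A barcode belonged to it with a total of 8500 UMIs or more in the double-knockout strain and of 5200 UMIs or more in the wild-type strain, a UMI being a random tag that counts 1 tagged protein molecule. The rule took 303 of 848 barcodes of the double-knockout strain, or 35.7%, and 308 of 850 barcodes of the wild-type strain, or 36.2%. Together these were 611 of 1698 barcodes. The range is the one in which cells in G2 or mitosis would lie, but no stage was measured, so that the group is a range of histone content and is called high-histone throughout.

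The double-knockout strain lacks both de-ubiquitination enzymes Ubp8 and Ubp10, which its label gives as dub8/dub10, and the wild-type strain carries both. Both were BY4741 (MATa his3 leu2 met15 ura3) with H2B tagged at its C terminal end by spytag and FLAG, grown in YPD as 1 culture each, fixed, and barcoded in 2 rounds of ligation in 96-well plates. Yeast has 2 genes for H2B, HTB1 (YDR224C, chromosome IV) and HTB2 (YBL002W, chromosome II), and the sources used here do not say which of them carried the tag. The gel bands of H2B and of H2Bub were cut out and sequenced as 1 library per band and strain, 4 libraries in all. Single cells of a culture do not replicate it. No p-value is therefore given, and every interval (95%, Clopper-Pearson) covers counting error only. The strains were set side by side without a test.

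H2B is one of the core histones that make up nucleosomes. Rad6, an E2 enzyme, and Bre1, an E3 ligase, attach a single ubiquitin to a lysine near its C terminal end, and Ubp8 and Ubp10 remove it. The modification goes with transcribed chromatin and cycles through addition and removal. Histone genes are expressed mainly in S phase, so that a cell with replicated DNA holds more H2B than a cell before replication.

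The libraries of the double-knockout strain held 3803975 H2B and 2462422 H2Bub UMIs, and those of wild type 3455421 and 427779. High-histone barcodes carried 55.8% of the H2B UMIs and 51.9% of the H2Bub UMIs of the double-knockout strain, and 54.1% and 52.9% of those of wild type. The tables of the strains had 72 barcodes in common, against 78.2 from the product of their sizes over the 9216 possible combinations. Of these, 23 (31.9%) were high-histone in the double-knockout strain and 29 (40.3%) in wild type, against 35.7% and 36.2% of all barcodes. In both strains at once, 9 were high-histone. Any 2 of the 96 barcodes of a round differ in at least 3 of their 8 bases.

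The total divided the barcodes of both strains into a lower and a higher population. In the double-knockout strain, the density of the log2 total peaked at 5378 and 10511 UMIs, a ratio of 1.95, with its lowest point between them at 7717 UMIs. In wild type the peaks lay at 3283 and 6371 UMIs, a ratio of 1.94, with the lowest point at 4671 UMIs. The threshold of the rule stood 1.10-fold above the lowest point in the double-knockout strain and 1.11-fold above it in wild type. It therefore took the higher population without its lower flank. The density at the lowest point was still 74.1% of that at the higher peak in the double-knockout strain and 66.3% in wild type, so that the populations overlapped.

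**Figure D1:**
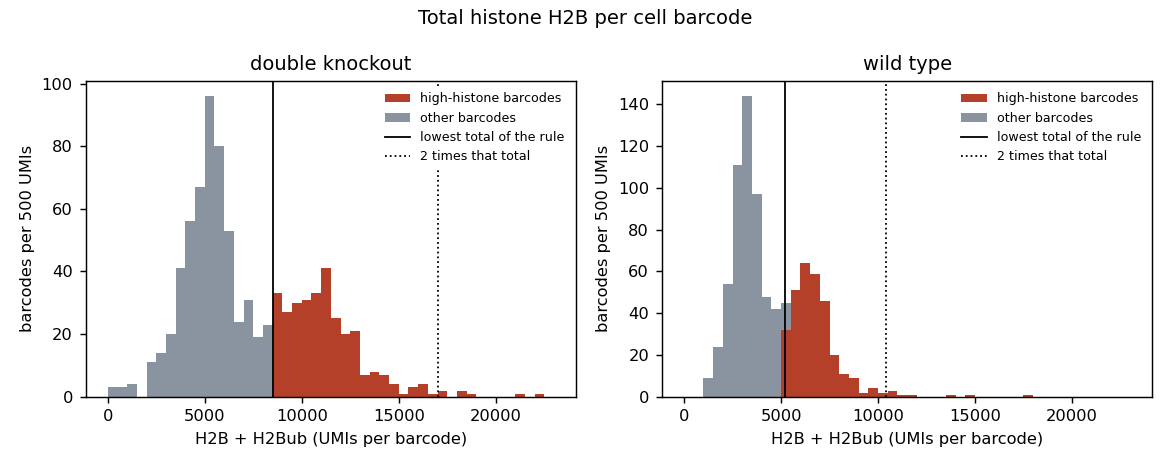
Number of barcodes (y axis, per 500 UMIs) by their total of H2B and H2Bub UMIs (x axis) in the double-knockout strain, left, and wild type, right. High-histone barcodes are red and the others gray, the solid line is the threshold of 8500 or 5200 UMIs, and the dotted line is 2 times the threshold, beyond which 7 double-knockout and 8 wild-type barcodes lay.

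Barcodes on either side of the threshold were alike in total, as they must be where a continuous range is divided. The lowest pair inside in the double-knockout strain had 8510 and 8516 UMIs and the highest pair outside 8493 and 8457 UMIs. In wild type the pair inside had 5207 and 5220 UMIs and the pair outside 5188 and 5184 UMIs. The share of H2Bub in these totals was less alike. It was 0.357 and 0.372 inside and 0.365 and 0.422 outside in the double-knockout strain. In wild type it was 0.112 and 0.127 inside and 0.115 and 0.0943 outside.

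Within the group, the total varied little apart from a thin upper tail. In the double-knockout strain it ran from 8510 to 22218 UMIs with a median of 10986, and the middle of the group, between the 25th and 75th percentiles, spanned 9760 to 12202 UMIs. In wild type it ran from 5207 to 17642 UMIs with a median of 6560, with 5945 and 7217 UMIs at the same percentiles. The coefficient of variation was 18.8% in the double-knockout strain and 20.8% in wild type. Without the barcodes at 2 times the threshold or more, it was 15.6% and 14.9%. Since the threshold removes the lower side, these values describe the group as chosen and not the spread of a whole stage.

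Both counts entered the rule, so that their levels in the group are a description. H2B averaged 7006 ± 1341 (SD over 303 barcodes) UMIs in the double-knockout strain and 6073 ± 1264 (SD over 308 barcodes) in wild type, 1.15-fold. H2Bub averaged 4220 ± 882 UMIs in the double-knockout strain and 734 ± 167 in wild type, 5.75-fold. Among the other barcodes the means were 1.05-fold for H2B and 5.84-fold for H2Bub, so that the contrast was not particular to the group. The lowest high-histone barcode of the double-knockout strain had 2687 H2Bub UMIs, and the highest of wild type 1717. Over all barcodes H2Bub ran from 153 to 8148 UMIs in the double-knockout strain and from 0 to 1717 UMIs in wild type, which overlap. The mean total of the double-knockout high-histone barcodes was 1.65-fold that of wild type, with thresholds that differ between the strains. Over all barcodes, where no threshold enters, the mean total was 7390 UMIs in the double-knockout strain and 4568 UMIs in wild type.

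The ubiquitinated fraction, H2Bub over H2B and H2Bub together, was 0.376 (0.375 to 0.376) in the summed counts of the double-knockout high-histone cells and 0.108 (0.107 to 0.108) in those of wild type, 3.49-fold. The rule used the sum of the counts and not the fraction itself. Each band of each strain was cut out, extracted and sequenced separately, and the counts were not normalized. The level of the fraction and the folds between the strains thus include any difference between the libraries in recovery or depth. The size of such a difference was not tested. Over single barcodes of the double-knockout strain, the lowest fraction was 0.306, the median 0.375 and the highest 0.491. In wild type these values were 0.0845, 0.108 and 0.138. These ranges did not overlap, nor did those of all barcodes, with a lowest fraction of 0.280 in the double-knockout strain and a highest of 0.151 in wild type. The double-knockout barcode with the highest fraction had 4513 H2Bub and 4685 H2B UMIs, and that with the lowest had 3010 and 6837. The wild-type barcode with the highest fraction had 921 H2Bub and 5753 H2B UMIs, and that with the lowest had 609 and 6601.

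Barcodes differed in the fraction by more than the counting of molecules gives, and 25.3% of the variance in the double-knockout strain and 32.6% in wild type lay between first-round barcoding wells. The SD of the fraction was 0.0310 in the double-knockout high-histone cells, 6.69 times the 0.00464 from counting error at their depth. In wild type it was 0.00952, 2.49 times the counting error of 0.00382. Counting thus gave 2.24% of the variance in the double-knockout strain and 16.1% in wild type. Relative to the mean, the spread was nearly the same, with a coefficient of variation of 8.26% in the double-knockout strain and 8.83% in wild type.

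Inside the high-histone range, the ubiquitinated fraction moved little with the total. With the double-knockout barcodes ordered by total and divided into 4 bands of 75 or 76, the fraction of the summed counts was 0.378, 0.372, 0.374 and 0.379 from the lowest to the highest band. In wild type, 4 bands of 77 barcodes gave 0.107, 0.108, 0.107 and 0.110. These steps exceed the counting intervals of the sums in places but are small beside the SD of single barcodes. Spearman's rho between fraction and total was 0.08 across the 303 double-knockout barcodes and 0.08 across the 308 of wild type, as descriptions, since the total is also the denominator of the fraction.

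The rest of each culture had a higher fraction. The double-knockout strain had a fraction of 0.376 in high-histone barcodes and 0.413 (0.413 to 0.414) in the 545 others, a difference of -0.0373. In wild type it was 0.108 in high-histone barcodes and 0.113 (0.112 to 0.113) in the 542 others, a difference of -0.00502. The difference held within the wells of the first barcoding round, where high-histone barcodes had the lower fraction in 78 of 90 wells in the double-knockout strain and in 78 of 90 wells in wild type, with mean differences of -0.0398 and -0.00651. With 25 UMIs taken off H2Bub in every barcode, a size of background chosen for illustration, the differences were -0.0355 in the double-knockout strain and -0.00160 in wild type. The background band of the gel was not analysed here.

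The change in fraction lay below the threshold and not at it. With the other barcodes of the double-knockout strain in 3 bands by total, the fraction was 0.428 up to 4740 UMIs, 0.431 from 4752 to 5815 UMIs and 0.392 from 5827 to 8493 UMIs. The same bands gave 0.117, 0.115 and 0.109 in wild type. The 25 barcodes nearest to the threshold had a fraction of 0.376 (0.374 to 0.378) inside and 0.372 (0.370 to 0.374) outside in the double-knockout strain, and of 0.107 (0.105 to 0.108) inside and 0.104 (0.102 to 0.106) outside in wild type. Barcodes just under the threshold thus already had the low fraction of the high-histone group.

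**Figure D2:**
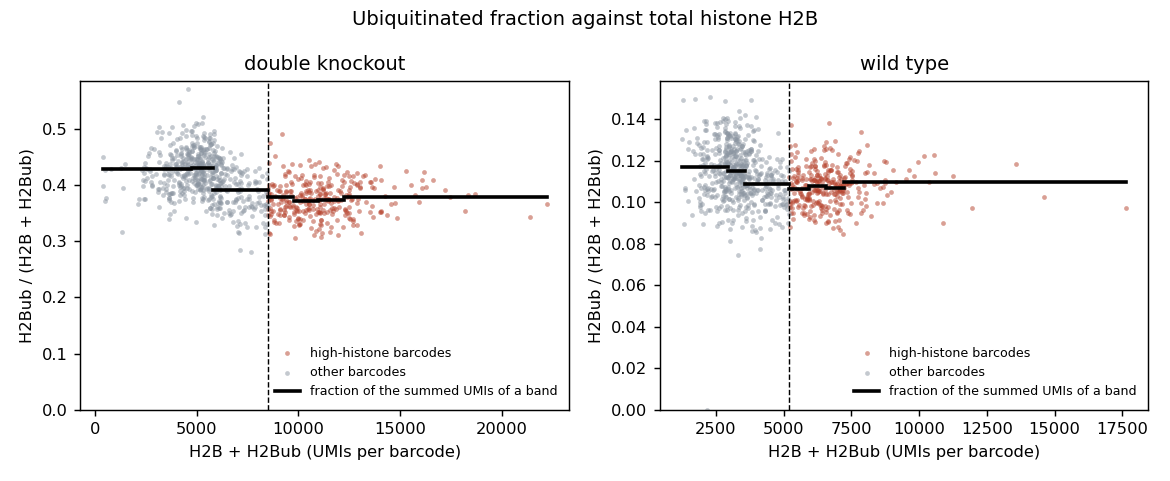
Ubiquitinated fraction (y axis, H2Bub over the sum of H2B and H2Bub) against the total in UMIs (x axis) for single barcodes of the double-knockout strain, left, and wild type, right, with high-histone barcodes in red and others in gray. Black bars give the fraction of the summed counts in bands of barcodes, between 0.372 and 0.379 above the threshold (dashed) in the double-knockout strain and between 0.107 and 0.110 in wild type.

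In mean UMIs per barcode, H2B differed more between high-histone barcodes and the others than H2Bub did in both strains. Their mean in the double-knockout strain was 2.27-fold higher for H2B and 1.94-fold for H2Bub, and in wild type 2.08-fold and 1.97-fold. High-histone barcodes of the double-knockout strain averaged 3921 more H2B and 2048 more H2Bub UMIs than the others. H2Bub was thus 0.343 of the difference in mean total between these sets of barcodes. In wild type the averages were 3149 H2B and 362 H2Bub UMIs higher, and H2Bub was 0.103 of the difference. A higher total follows from the rule, and since H2B is the larger part of it, the division between the isoforms is not fully free of the choice. The difference in fraction from the other barcodes was -0.0428 in the double-knockout strain and -0.00552 in wild type with the same number of barcodes chosen by highest H2B, and -0.0316 and -0.00310 chosen by highest H2Bub.

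H2Bub rose with H2B from cell to cell within the group. The slope of ln H2Bub on ln H2B by least squares was 0.83 in the double-knockout high-histone barcodes and 0.997 in those of wild type. A slope of 1 would mean that H2Bub grows in proportion to H2B. The rule cut the group along the sum of both counts, which bears on this slope. The value of 0.83 is therefore no measure of a departure from proportion. Pearson's r of the logarithms was 0.750 over 303 barcodes and 0.870 over 308 barcodes, which share their library and their barcoding. Among the others, the slope was 0.85 in the double-knockout strain and 0.86 in wild type.

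The slope in the high-histone range depended on how the line was drawn, more than it differed between the strains. With the same number of barcodes chosen by highest H2B it was 0.96 in the double-knockout strain and 1.02 in wild type, and chosen by highest H2Bub 0.75 and 0.89. Against ln total, the quantity the rule used, the slope of ln H2Bub was 1.03 in the double-knockout strain and 1.03 in wild type. The same slope among the other barcodes was 0.95 and 0.90. H2Bub is itself part of the total, so that these slopes are descriptions and no measure of proportion. The reduced major axis, which treats both counts alike, gave 1.10 in the double-knockout strain and 1.15 in wild type, and least squares within first-round wells 0.91 and 1.06.

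**Figure D3:**
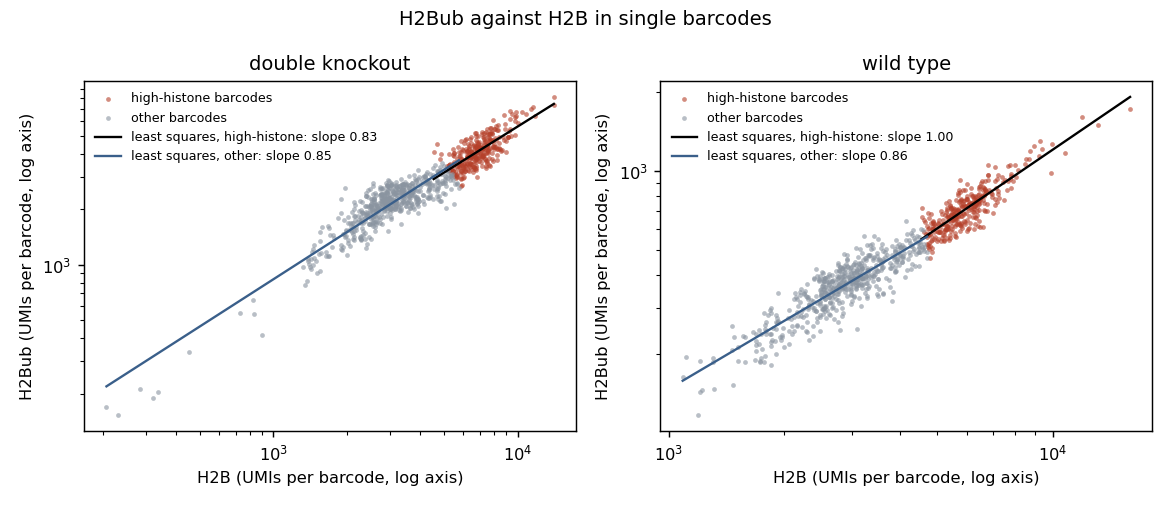
H2Bub against H2B in UMIs per barcode, both on log axes, for the double-knockout strain, left, and wild type, right, with high-histone barcodes in red and others in gray and the 1 wild-type barcode without H2Bub left out. Lines are least squares fits to the logarithms, with slopes of 0.83 and 0.997 in the high-histone barcodes of the double-knockout strain and of wild type.

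The upper tail was set at 2 times the threshold, the least that a pair of high-histone cells sharing a barcode could give. Of the double-knockout barcodes 7 reached 17000 UMIs, between 17203 and 22218, and the next below had 16621. In wild type 8 barcodes reached 10400 UMIs, between 10564 and 17642, and the next below had 10358. The 3 highest of each strain are given by their joined barcode, the first-round part in capitals and the second-round part in lower case, to show that those of a strain came from different wells. The highest of the double-knockout strain and the second highest of wild type share their first-round barcode.
Double knockout, 22218 UMIs: AACCAGAGcttacagc
Double knockout, 21388 UMIs: GCGTTAGAccacaaca
Double knockout, 18710 UMIs: CAACACAGctcgactt
Wild type, 17642 UMIs: CACGCAATtggtgaag
Wild type, 14604 UMIs: AACCAGAGcttgctag
Wild type, 13563 UMIs: CTTCACTGcacagact

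The tail barcodes were spread over the plates. The 7 of the double-knockout strain came from 7 first-round and 7 second-round wells, and the 8 of wild type from 8 and 8. With 96 wells in each round, so few barcodes mostly fall into different wells, so that this is a description only. The highest barcode of the double-knockout strain had 14070 H2B and 8148 H2Bub UMIs, and that of wild type 15925 H2B and 1717 H2Bub UMIs. The fraction of the summed tail counts was 0.371 (0.368 to 0.373) in the double-knockout strain and 0.106 (0.104 to 0.108) in wild type, against 0.376 (0.376 to 0.377) and 0.108 (0.107 to 0.108) in the high-histone barcodes below the tail. Single tail barcodes lay between 0.343 and 0.392 in the double-knockout strain and between 0.0901 and 0.123 in wild type. They are part of the group, so that its range includes them by construction.

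A barcode held by 2 cells shows the sum of their counts. With cells dealt evenly to the 9216 combinations, 848 filled barcodes correspond to 889.6 cells and to 40.3 barcodes with more than 1 cell in the double-knockout strain, and 850 to 891.8 cells and 40.5 such barcodes in wild type. Over all pairs of barcodes of a table, 93.4% had a sum at or above the threshold in the double-knockout strain and 95.2% in wild type, and 29.9% and 29.4% a sum at or above 2 times the threshold. Multiplied, these values correspond to 37.6 shared barcodes in the double-knockout high-histone group (12.4% of its size) and 38.5 in that of wild type (12.5%). Of these, 12.02 and 11.9 would lie in the tails, more than the 7 and 8 barcodes of any kind found there. The calculation thus gave more than the tails held, and its values for the group are no estimate of sharing. Pairs of barcodes from below the threshold reached it in 84.0% of cases in the double-knockout strain and in 88.2% in wild type. The calculation takes every listed barcode as a single cell, which it is not when some are shared, and no barcode could be marked as shared from its counts, so that the part of shared barcodes in the group was not tested.

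The ubiquitinated fraction of high-histone cells differed between the wells of the first barcoding round. Of its variance, 25.3% lay between first-round wells in the double-knockout strain (303 barcodes in 92 wells) and 32.6% in wild type (308 barcodes in 91 wells), as variance components. Between second-round wells it was 4.16% and 1.54%. Which part of a barcode is the first round was taken from the order in the methods, since both rounds used the same sequences. As an SD, the component of ln total between first-round wells was 0.00384 in the double-knockout strain, against 0.172 within wells, and 0 in wild type. Between second-round wells this component was 0.0293 in the double-knockout strain, against 0.169 within wells, and 0 in wild type. The rule cut the total at the threshold, so that these values are descriptions and no contrast to the fraction. Wells held between 0 and 8 high-histone barcodes in the double-knockout strain and between 0 and 11 in wild type in the first round.

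First-round wells tended to be high or low in both strains. Over the 40 first-round wells with at least 3 high-histone barcodes in each strain, the mean fractions of the double-knockout strain and of wild type had Pearson's r = 0.67 and Spearman's rho = 0.63. Without the 2 wells farthest from the median of the double-knockout values, r was 0.64. In 13 of the wells both strains lay above their own mean and in 16 both lay below it, while the other 11 lay on opposite sides. Over all 88 first-round wells with a high-histone barcode in each strain r was 0.48. Over the 42 second-round wells with at least 3 in each strain r was 0.31, and over all 90 it was 0.03. Among the other barcodes, r over first-round wells was 0.50 (76 wells with at least 3 in each strain) and 0.41 (92 wells), so that the agreement was not particular to the high-histone group. The points share the oligo of the well and come from separate cultures and libraries. The correlations are descriptions across wells, and the difference between the rounds was not tested.

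**Figure D4:**
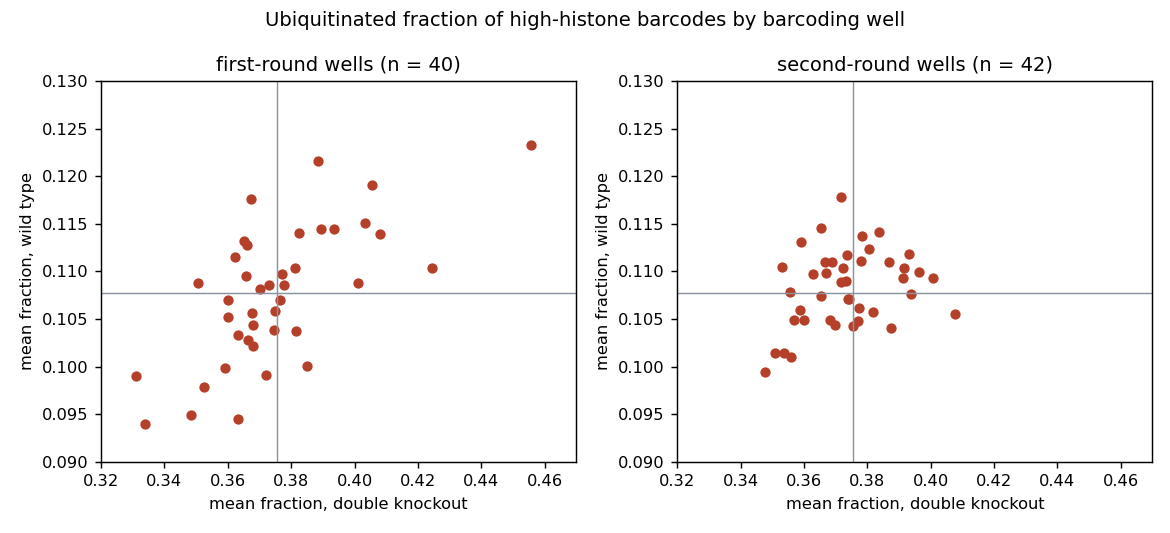
Mean ubiquitinated fraction of the high-histone barcodes of each well in the double-knockout strain (x axis) and in wild type (y axis), for first-round wells, left (40 wells), and second-round wells, right (42 wells), with at least 3 such barcodes in each strain. Gray lines are the means over all high-histone barcodes, and the first-round wells run on the whole from low in both strains to high in both, with r = 0.67.

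The oligo of the first round carries the UMI and the first part of the cell barcode between the ligation sites. The 40 wells with at least 3 high-histone barcodes in each strain were ranked by mean fraction relative to the strain mean, averaged over both. The oligos of the 3 highest and the 3 lowest wells in this ranking are shown. Well F10 ranked high mainly through wild type, at 1.13 times the mean (3 barcodes). In the double-knockout strain it stood at 1.03 times (7 barcodes). These wells were picked after their values were seen. The well's barcode is in capitals and n stands for a random base of the UMI.
Well H11, high: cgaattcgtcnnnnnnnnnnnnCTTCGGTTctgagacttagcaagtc
Well G5, high: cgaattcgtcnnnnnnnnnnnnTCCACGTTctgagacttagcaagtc
Well F10, high: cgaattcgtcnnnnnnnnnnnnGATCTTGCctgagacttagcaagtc
Well H3, low: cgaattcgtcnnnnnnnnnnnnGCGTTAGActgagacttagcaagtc
Well F4, low: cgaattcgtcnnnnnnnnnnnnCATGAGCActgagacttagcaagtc
Well F2, low: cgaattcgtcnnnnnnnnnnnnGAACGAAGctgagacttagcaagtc

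These oligos differ only in the 8 bases of the barcode, and all 96 barcodes hold 4 bases that are G or C. In well H11 the fraction was 0.401, 0.475 and 0.491 in the 3 high-histone barcodes of the double-knockout strain, and between 0.113 and 0.137 with a median of 0.121 in the 6 of wild type. In well F2 it was 0.311, 0.335, 0.339 and 0.351 in the double-knockout strain, and 0.0881, 0.0945, 0.0946 and 0.0985 in wild type. In either strain, the lowest high-histone barcode of well H11 lay above the highest of well F2. These wells were the highest and the lowest of the ranking by the same values, so that their separation is a description only. Relative to its strain, well H11 stood at 1.21 times the mean in the double-knockout strain and 1.14 times in wild type, and well F2 at 0.889 and 0.872 times.

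The wells kept their order in part among the cells outside the group, which the picking did not use. The other barcodes of well H11 averaged 1.09 times the mean of all others in the double-knockout strain (9 barcodes) and 1.17 times in wild type (2 barcodes), and those of well F2 0.987 times (3 barcodes) and 0.920 times (5 barcodes). Well F4, low among high-histone barcodes at 0.881 and 0.919 times the mean, stood at 0.981 and 1.02 times among the others. Across the 90 wells of each strain with barcodes on both sides of the threshold, the summed fraction of the high-histone barcodes and that of the others had r = 0.26 in the double-knockout strain and 0.60 in wild type.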

How the data were processed

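The values deposited by the authors are counts of unique UMIs per cell barcode and gel band. The authors kept reads whose constant region had at most 1 mismatch, joined the 8-base barcodes of both rounds, kept those among the 9216 combinations, chose real-cell barcodes by reads and counted the 12-base UMIs. The counting tool and any correction of UMI errors were not given in the sources used here. Libraries were made from 10% of the gel extract. Missed or chance-matched UMIs lower a count, and reads from another band raise it. The first 8 bases of a barcode were read as the first round, the order in which the methods join them. Both rounds used the same 96 barcode sequences, so that the counts cannot show which part belongs to which round. The naming of the rounds and the oligos shown rest on this order. The background band was not analysed here.

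Counts were used without normalization. Members and lists were chosen with earlier results of these data known. Barcodes named singly were the 3 highest totals, the extreme fractions and the 2 nearest to the threshold on either side. Sums carry Clopper-Pearson intervals (95%). Counting SDs are binomial, the density of log2 total used a Gaussian kernel, and variance components were by moments (floored at 0). Alternatives moved the threshold by 10%, chose barcodes otherwise, removed the tail or background, corrected chance UMI matches, and changed the line or summary. The functions were tested on simulated data. Matplotlib 3.10.9, pandas 2.3.3, SciPy 1.17.1, NumPy 2.4.6 and Python 3.11.15 were used.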

Additional observations from a re-analysis of the deposited data

How the results depend on the processing

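No value changed sign among the 98 alternative values, although the slope, 0.83 and 0.997 in the main setting, was above 1 by the reduced major axis and on log total in both strains and, in wild type, within first-round wells and under other choices of barcodes. Of these values 57 lay within the main counting interval (or within 5% of the value for slopes and coefficients of variation, which have none) and 41 did not. Where no value or construction shows the cause, the cause was not tested. Leaving out other barcodes under 1000 H2B UMIs and the mean difference within wells were chosen after seeing the data. No paired analysis of cultures was possible because each strain was grown as 1 culture, and differences within wells pair barcodes and not cultures. Each sum has a counting error far under the spread of cells, so that depth limits single wild-type fractions most.

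For the ubiquitinated fraction of high-histone barcodes, choosing the same number by highest H2Bub gave 0.378 in the double knockout and 0.109 in wild type, choosing by highest H2B gave 0.373 in the double knockout, 25 UMIs off H2Bub gave 0.375 and 0.105 (3.58-fold between strains), and the median of barcodes gave 0.375 in the double knockout. The slope was 0.75 in the double knockout and 0.89 in wild type when chosen by H2Bub, 0.96 in the double knockout when chosen by H2B, 1.10 and 1.15 by the reduced major axis, 0.91 and 1.06 within first-round wells, and 1.03 on log total in the double knockout.

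The coefficient of variation of the total was 20.3% in the double knockout and 22.2% in wild type with the threshold 10% lower, 16.99% and 19.7% with it 10% higher, 20.2% and 22.2% at the lowest density, and 15.6% and 14.9% without the tail. The shares of high-histone barcodes under the first 3 of these were 40.1% and 40.9%, 29.6% and 29.9%, and 39.9% and 40.9%.

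The difference in fraction from other barcodes, in the double knockout and in wild type, was -0.0427 and -0.00619 with the threshold 10% lower, -0.0419 and -0.00619 at the lowest density, -0.0316 and -0.00310 when chosen by H2Bub, -0.0355 and -0.00160 with 25 UMIs off H2Bub, and -0.0398 and -0.00651 within wells. In the double knockout it was -0.0321 with the threshold 10% higher and -0.0428 when chosen by H2B.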
